A study of Mus musculus with 6 samples.

Results

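Cells take up glucose through facilitative transporters of the Slc2a family and adjust that uptake through the alpha-arrestin Txnip. Described here are 8 genes of 32285 in the deposited matrix: Slc2a1, Slc2a3, Slc2a4, Slc2a8, Slc2a10 and Slc2a12, which encode hexose transporters, and Txnip and Arrdc4, which encode related alpha-arrestins. They were chosen by gene symbol, and each symbol named 1 row of the gene list. Their levels were read across cell types of the mouse cardiogenic region at E10.5, about the middle of gestation, in 35962 of 53362 cell barcodes.

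The study profiled single-cell RNA from wild-type C57BL/6 embryos of mothers given either vehicle, which had normal blood glucose, or streptozotocin (STZ), a drug toxic to insulin-producing cells that made them hyperglycemic. Both kinds of female were mated with males of normal blood glucose, and there were 3 samples of each treatment. The labels place the tissue in the heart and add that non-cardiac mesoderm, ectoderm and endoderm were also taken. All samples came in 1 pooled matrix whose barcodes end in a number from 1 to 6, here called libraries 1 to 6, and no file used here ties that number to a sample. STZ against vehicle was therefore not compared, no library is given a treatment, the matrix counts as 1 sample, and no test between cell types or libraries was run.

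Slc2a1 (GLUT1) is the widespread transporter that sets basal glucose entry, and it is known as a target of hypoxia-inducible factors. Slc2a3 (GLUT3) has a higher affinity for glucose and is known from neurons, platelets and trophoblast. Slc2a4 (GLUT4) is the insulin-responsive transporter of adult muscle and fat, Slc2a8 (GLUT8) and Slc2a12 (GLUT12) are found largely on internal membranes, and loss of Slc2a10 (GLUT10) in people causes arterial tortuosity. Txnip binds thioredoxin and promotes the removal of Slc2a1 from the cell surface, and Arrdc4 is its closest relative. Both genes are induced by glucose metabolites through the Mondo family factors Mlxip and Mlxipl, which pair with Mlx on carbohydrate response elements made of a pair of E-box-like sites.

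The DNA before the start of Txnip and of Arrdc4 is shown because these elements are described there. RefSeq promoter sequences on GRCm38.p6, the mm10 assembly, were available for 6 of the 8 genes: Slc2a1, Slc2a8, Slc2a10, Slc2a12, Txnip and Arrdc4. The Txnip sequence is chr3:96557707-96557956, plus strand, just before the gene (chr3:96557957-96561883 in GENCODE M21). The Arrdc4 sequence is chr7:68749242-68749488, minus strand, just before the gene (chr7:68736995-68749241). The 3 bases between its end and the RefSeq start lie inside the GENCODE gene and are not printed. Capitals mark both sites of the paired motif in Txnip and the E-box in Arrdc4.
Txnip: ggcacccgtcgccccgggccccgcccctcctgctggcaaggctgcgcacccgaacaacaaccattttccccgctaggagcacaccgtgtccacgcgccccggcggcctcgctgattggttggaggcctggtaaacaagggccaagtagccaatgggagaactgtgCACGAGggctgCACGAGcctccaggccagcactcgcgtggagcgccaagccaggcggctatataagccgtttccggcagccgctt
Arrdc4: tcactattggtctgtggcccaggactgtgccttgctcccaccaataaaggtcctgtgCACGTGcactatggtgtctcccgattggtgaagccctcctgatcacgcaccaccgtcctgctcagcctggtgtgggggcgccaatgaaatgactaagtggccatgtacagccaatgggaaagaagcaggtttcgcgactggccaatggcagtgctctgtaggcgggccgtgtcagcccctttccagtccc

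Motifs were searched on both strands of the 250 bases before the RefSeq start in 32851 promoters. The paired motif, CACGNG followed after 5 bases by a further CACGNG (N is any base), was found in 15 promoters (0.0457%). Of the 6 genes only Txnip held it, beginning 85 bases before the start and overlapping no CCAAT box. Only this form, with both sites in the same direction, was searched. Looser or opposed pairs were not, so the lack of a match in Arrdc4 does not show that it lacks such an element. The E-box CACGTG was found in 6.02% of promoters and, of the 6, only in Arrdc4, 193 bases before the RefSeq start; it contains the ACGTG core. That core, part of the site bound by hypoxia-inducible factors, stood in 16.6% of promoters and, of the 6, in Arrdc4 and in Slc2a1, where it began 36 bases before the start. CCAAT, on either strand, was found in 33.8% of promoters and occurred 6 times in Arrdc4, 2 times in Txnip, 4 times in Slc2a8 and 1 time in Slc2a10. A match is a description of letters and not a shown binding site.

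The libraries held between 7533 and 10000 barcodes and 200462921 to 248426458 unique molecular identifiers (UMIs, each marking 1 captured RNA molecule). With at least 2500 genes and at most 10% mitochondrial UMIs, 4903 to 7136 cells per library remained, with median depths of 30533 to 35634 UMIs. Cells were sorted into types by gates, each asking for a number of detected markers of one type, and each gate name stands for cells like that type in those markers (ventricular cardiomyocyte-like, and so on). One gate took 21197 cells (58.9%), 11147 (31.0%) passed none and 3618 (10.1%) passed several and were set aside. Levels are UMIs of a gene per 1000000 UMIs (CPM) summed over the cells of a type, with 95% exact Poisson intervals that cover counting error only. Of 21 types, 19 had at least 20 cells in 4 or more libraries and 16 had them in all 6. Library 1 stood apart in sex-linked RNA, with Xist at 383 CPM and Ddx3y at 0.0908 CPM, against at most 0.342 and at least 33.8 CPM in libraries 2 to 6. Of the cells used, 2890 carried a barcode sequence that also occurs in another library.

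Of the 8 genes, 5 reached 10 CPM in their highest cell type: Slc2a1, Slc2a3, Slc2a8, Txnip and Arrdc4. Over all genes with a UMI, 42.5% reached it. Without the cells of shared barcode sequence the number was also 5. Slc2a4, Slc2a10 and Slc2a12 stayed below that level in each of the 19 types. A transcript yields its UMI at the 3′ end whatever its length, so levels were not divided by gene length. Each gene is compared mainly with itself across types.

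**Figure D1:**
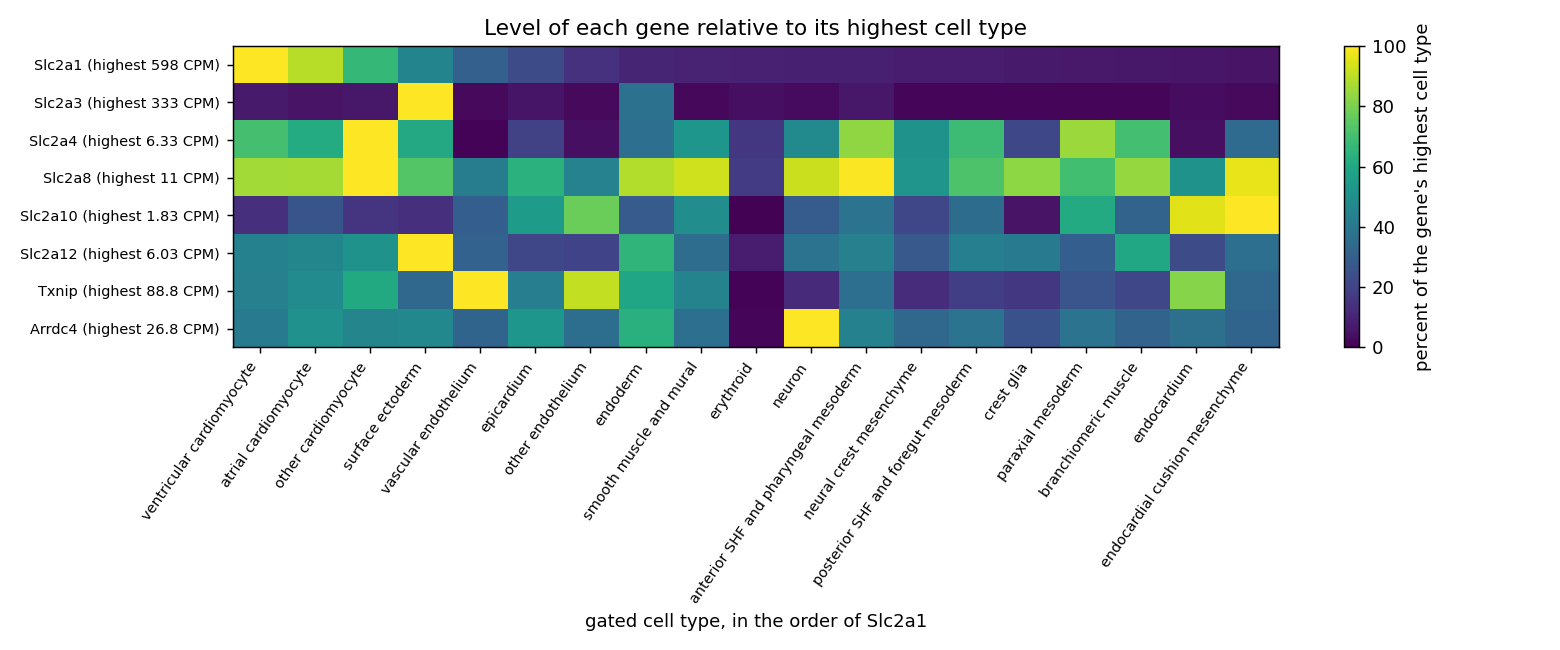
Level of each of the 8 genes in the 19 cell types, as a percent of that gene's highest type (color scale), with the highest CPM beside the name; columns follow the order of Slc2a1. The brightest cells lie in cardiomyocytes for Slc2a1, surface ectoderm for Slc2a3 and Slc2a12, endothelium for Txnip and neurons for Arrdc4. The erythroid column is lowest for Txnip and Arrdc4, and also for Slc2a8, Slc2a10 and Slc2a12.

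Slc2a1 (ENSMUSG00000028645; chr4:119108711-119137983, plus strand) was highest in heart muscle. It stood at 598 CPM (interval 592 to 603) in 1399 ventricular cardiomyocytes, with 625, 633, 600, 610, 585 and 517 CPM in libraries 1 to 6. In 556 atrial cardiomyocytes it stood at 533 CPM, with 584, 563, 376, 559, 467 and 548 CPM in the same order. The ranges of the chambers overlapped, and ventricular cells were above atrial cells in 5 of 6 libraries, by 1.12-fold over all (interval 1.10 to 1.14). Library 3, the lowest for atrial cells, held 36 of them. Without cells of shared barcode sequence the ventricular level was 602 CPM.

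The remaining cardiomyocytes, which met neither chamber gate and were led by genes such as Vsnl1, Shox2, Hcn4 and Bmp2, had 399 CPM. Their libraries spanned 361 to 475 CPM with a median of 392, below every ventricular value. Single cells of this gate differed widely in Slc2a1: the quartiles of the 984 cells were 0.757 and 5.11 UMIs per 10000, and 9.86% had none. In ventricular cells the quartiles were 3.42 and 7.74 per 10000, and 1.29% had none. Depth differed as well, with a median of 50204 UMIs in ventricular cells and 32268 in the remaining cardiomyocytes. A cell with fewer UMIs more easily shows none of a gene. The part of depth in these values was not tested.

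In endothelium, the blood vessel and endocardial cells differed in Slc2a1 by more than the libraries spread. Vascular endothelium had 184 CPM (libraries 164 to 207, median 187). Endocardium, the inner lining of the heart, had 36.3 CPM (libraries 31.7 to 40.9, median 35.7). The ratio was 5.07 (interval 4.78 to 5.38), vascular cells were higher in 6 of 6 libraries, and the ranges did not overlap. Endothelial cells of neither gate lay between, at 85.3 CPM (71.4 to 98.1). None of the markers of the endocardial gate was among the 10 leading genes of the endocardial cells, which were led by Gpr182, Klhl4 and Adgrg6.

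Surface ectoderm had 271 CPM of Slc2a1 (libraries 159 to 428, median 220.2). Of its 1699 cells, 101 picked for high Slc2a1, described further on, held 48.9% of these UMIs. Epicardium, the outer layer of the heart, had 139 CPM (libraries 116 to 176, median 134). Endoderm had 62.4 CPM (47.7 to 73.9). From smooth muscle at 56.9 CPM down to branchiomeric muscle at 39.1 CPM, 9 types formed a run in which neighbours had intervals of their ratio that included 1, except anterior second heart field against neural crest mesenchyme (1.07, interval 1.02 to 1.12; 4 of 6 libraries). Endocardium (36.3 CPM) and endocardial cushion mesenchyme (32.4 CPM; libraries 29.1 to 35.5) stood at the bottom, and they overlapped. Macrophages (61.0 CPM, 41 cells) and megakaryocytes (63.6 CPM, 50 cells) were too few for values per library.

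Slc2a1 UMIs were counted in each type. As a measure of cardiomyocyte RNA outside the cardiomyocyte gates, a cardiomyocyte gene was read in the same cells. Whether such RNA was free or made by the cells of a gate was not tested. Tnnt2 was found in neural crest mesenchyme at 0.0881% of its ventricular level. The same percent of the ventricular Slc2a1 level would be 0.527 CPM, against 48.1 CPM measured there. In posterior second heart field the same reading gave 4.22 of 47.2 CPM, and in endocardium, where Tnnt2 was at 1.15% of its ventricular level, 6.90 of 36.3 CPM. By Myl4 and Myl7, other cardiomyocyte genes, the endocardial reading was 1.14 and 0.630 CPM. In smooth muscle and mural cells Tnnt2 was at 7.40% of its ventricular level, and the reading gave 44.2 of 56.9 CPM. By Myl4 and Myl7 it gave 34.9 and 25.3 CPM there. In epicardium it gave 22.5 of 139 CPM by Tnnt2, 15.9 CPM by Myl4 and 62.0 CPM by Myl7. The part of cardiomyocyte RNA in these levels was not tested. In erythroid cells, whose UMIs were 40.5% globin, Slc2a1 was at 54.3 CPM, or 91.4 CPM with globin UMIs left out of the total.

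**Figure D2:**
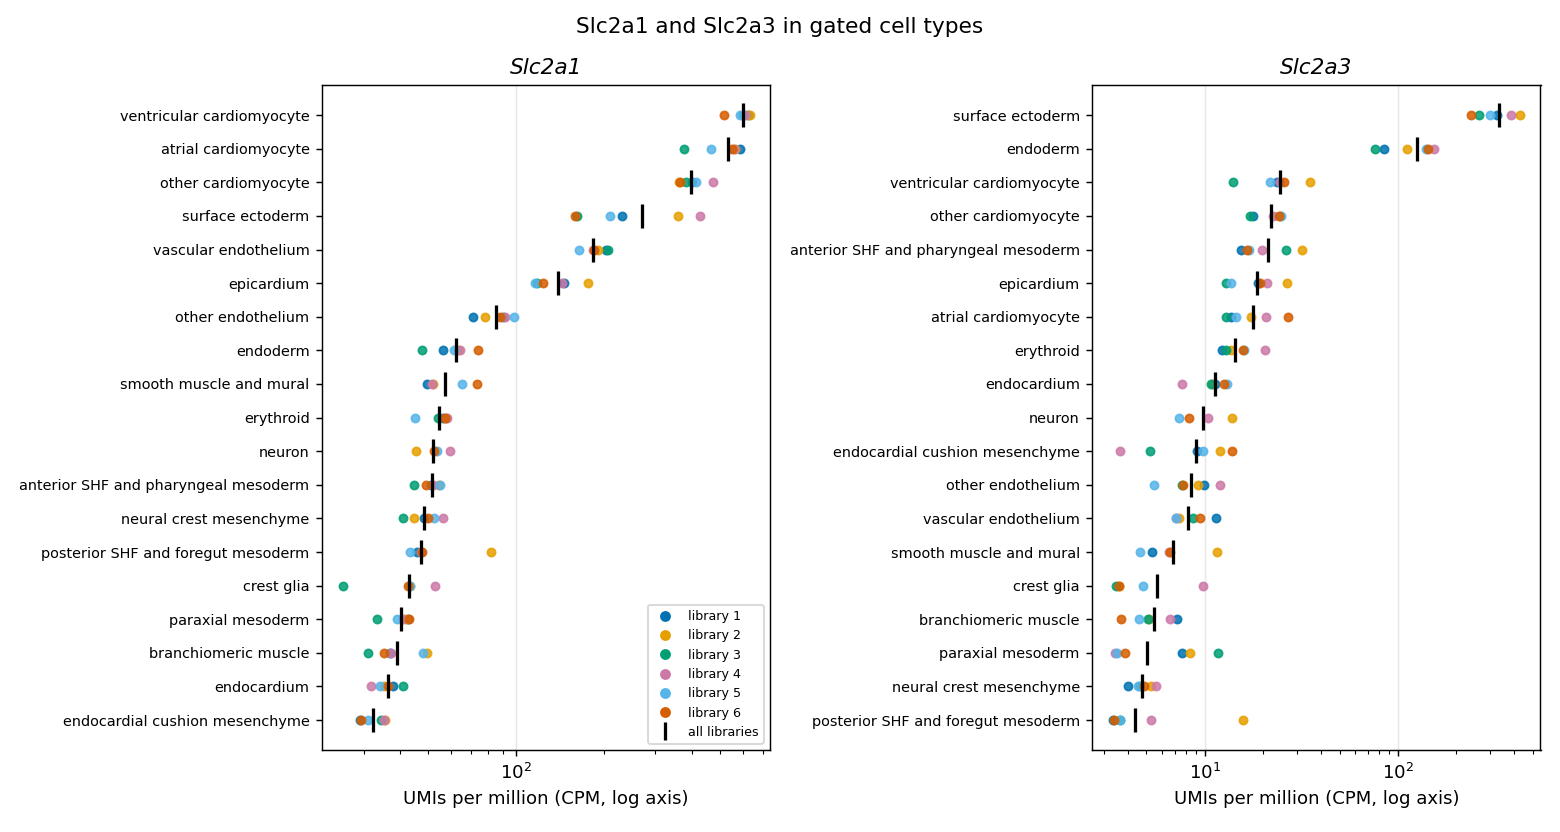
Slc2a1 (left) and Slc2a3 (right) in 19 gated cell types, in CPM on log axes; colored points are libraries with at least 20 cells of the type and black ticks are all libraries together. Slc2a1 is highest in cardiomyocytes and above 30 CPM in every type pooled, Slc2a3 is highest in surface ectoderm and endoderm, and library 2 lies far to the right in posterior second heart field for both.

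Slc2a3 (ENSMUSG00000003153; chr6:122727809-122801640, minus strand) was highest, among the 19 types with values per library, in the epithelia of these tissues. Surface ectoderm had 333 CPM (interval 328 to 339), with 329, 431, 263, 388, 300 and 240 CPM in libraries 1 to 6. Endoderm had 126 CPM, with 84.98, 112, 76.3, 155, 141 and 144 CPM. Each library of ectoderm lay above each library of endoderm, and the ratio was 2.64 (interval 2.57 to 2.73). Without cells of shared barcode sequence, ectoderm was at 313 CPM and the ratio 2.52. All other types with values per library were below 36 CPM in each library.

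Megakaryocytes, the source of platelets, had 298 CPM of Slc2a3 (interval 275 to 322) in 50 cells, and macrophages 46.0 CPM (38.2 to 54.9) in 41 cells. Cardiomyocytes had 17.7 to 24.6 CPM over the 3 gates, and the libraries of the gates overlapped. Anterior second heart field and pharyngeal mesoderm had 21.2 CPM (libraries 15.4 to 32.0), against 4.34 CPM in posterior second heart field and foregut mesoderm. The ratio of anterior to posterior was 4.88 (interval 4.25 to 5.63) and held in 6 of 6 libraries, although the ranges overlapped because of library 2. The ectoderm markers Perp and Sfn were at 5.38% and 1.41% of their ectoderm level in the anterior gate. In the posterior gate they were at 0.512% and 0.205%. The part of ectodermal RNA in this ratio was not tested. Neurons had 9.77 CPM, neural crest mesenchyme 4.75 CPM and paraxial mesoderm 5.04 CPM.

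Slc2a3, Slc2a12 and Arrdc4 were the 3 of the 8 genes whose highest type lay above the next in each library compared. Among the 11558 genes at 10 CPM this held for 36.9%. Slc2a12 is below 10 CPM, so on that base the count is 2 of 5 members. The number was also 3 without cells of shared barcode sequence, 2 to 4 when a library was left out, and 1 in cells thinned to 5000 UMIs. Slc2a3 was also the 1 gene with its highest type at least 2-fold above the next, which 9.55% of genes reached. Without 101 ectoderm cells of very high Slc2a1, described next, the ratio is 1.99 and this no longer holds.

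Between libraries Slc2a1 spread most in surface ectoderm, and Slc2a3 in posterior second heart field. In surface ectoderm Slc2a1 was at 231, 360, 162, 428, 209 and 159 CPM in libraries 1 to 6. Libraries 2 and 4 were high for both transporters there. Other lists moved beside this. The smooth muscle and mural list, which holds Acta2 and Tagln, summed to 82.8, 140, 59.5, 407, 103 and 45.9 CPM in the surface ectoderm of libraries 1 to 6, high in the same libraries. The endothelium list (24.9 to 56.7 CPM) and the epicardium list (104 to 164 CPM) were also highest in library 4, then 2. The neural crest mesenchyme list, at 244 to 267 CPM, was highest in library 3. The 12 hypoxia-responsive genes summed to 322, 325, 323, 343, 335 and 322 CPM. Single members of that list differed: Egln3 was at 3.40, 7.36, 6.00, 7.97, 5.29 and 2.15 CPM and P4ha1 at 45.2, 49.6, 44.0, 57.0, 43.0 and 39.8 CPM, both highest in library 4, then 2, and lowest in 6. Others followed other orders: Ddit4 was lowest in library 2 (22.6 CPM) and highest in library 5 (34.6 CPM), Bnip3 was highest in library 5 (51.6 CPM), and Ndrg1 in library 6 (3.84 CPM). Egln1 was at 98.6 to 105.1 CPM. The part of these genes in the transporter levels was not tested. After these values had been seen, the 1699 ectoderm cells were divided at 8 Slc2a1 UMIs per 10000. The 101 cells at or above it held 48.9% of the ectodermal Slc2a1 UMIs and 30.6% of the Slc2a3 UMIs.

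These 101 cells numbered 13, 33, 5, 38, 10 and 2 in libraries 1 to 6, or 3.92%, 10.3%, 1.88%, 12.9%, 4.07% and 0.830% of the surface ectoderm. In the remaining ectoderm Slc2a1 was at 154, 161, 144, 153, 133 and 150 CPM. A narrower span of Slc2a1 without them follows from how they were picked and shows nothing by itself. Slc2a3 without them was at 269, 292, 249, 210, 247 and 234 CPM. Around the threshold, 32 cells had 6 to 8 UMIs per 10000, 19 had 8 to 10 and 82 had 10 or more, while 1480 had under 4. Because the cells were picked by Slc2a1, their Slc2a1 level (1687 CPM against 150 CPM in the other ectoderm) is a description.

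The high cells differed from the remaining ectoderm in many other genes, with no test made. Slc2a3 was at 1297 CPM against 251 CPM, and Bsg, which encodes the chaperone of monocarboxylate transporters, at 1506 against 460.5 CPM. The keratin gene Krt8 was at 2338 against 385 CPM and the transcription factor gene Hand1 at 199 against 10.6 CPM. The 10 leading genes by ratio, among genes at 20 CPM or more, were Acta2, Gabrp, Upk3b, Ecscr, Marc1, Dpep1, Pmp22, Tac2, Tagln and Emp2. Acta2 and Tagln encode smooth muscle contractile proteins and stood at 434 and 682 CPM against 9.24 and 29.8 CPM. Of 2 markers of the gate, the epithelial adhesion gene Epcam was at 642 and 673 CPM, whereas Trp63, the regulator of stratified epithelium, was at 20.6 against 155 CPM. The other markers of the gate are not given here. Tnnt2 was at 2.87 against 6.43 CPM and Cldn5, an endothelial gene, at 1 UMI in all the high cells. Ecscr, also known from endothelium, went the other way, at 73.7 against 1.66 CPM. Upk3b, a marker of the epicardium gate, was at 111 against 2.39 CPM. Txnip was at 22.9 against 30.1 CPM and Arrdc4 at 12.6 in both. Median depth was 30465 UMIs in the high cells and 24117.5 UMIs in the others. No cell type name is given to the high cells, as no marker list used here was made for them.

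**Figure D3:**
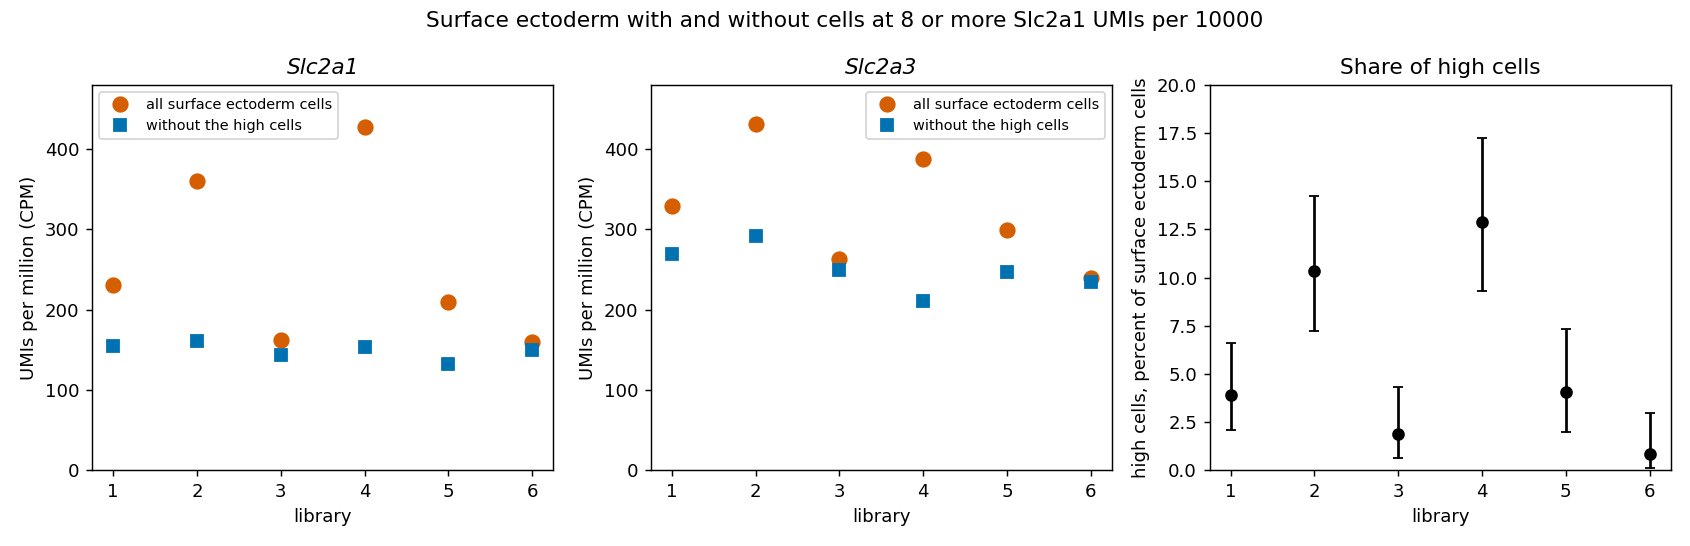
Surface ectoderm by library: Slc2a1 (left) and Slc2a3 (middle) in CPM, in all surface ectoderm cells (circles) and without cells at 8 or more Slc2a1 UMIs per 10000 (squares), and the share of those high cells in percent with 95% exact binomial bars (right). Slc2a1 spans 159 to 428 CPM over all the cells, the Slc2a1 values without the high cells are narrower by construction, and the share of high cells is largest in libraries 4 and 2.

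In posterior second heart field and foregut mesoderm, library 2 was highest for Slc2a1, Slc2a3, Txnip and Arrdc4. The share of all genes highest in library 2 in this gate was not counted. Its Slc2a1 was at 81.8 CPM against 43.2 to 47.6 CPM in the other libraries, and its Slc2a3 at 15.8 against 3.35 to 5.26 CPM. Txnip was at 27.8 against 10.51 to 20.1 CPM and Arrdc4 at 20.1 against 9.39 to 13.4 CPM. Libraries 1 and 2 had only 62 and 63 cells of this gate, against 310 to 711 in libraries 3 to 6. Beside this, the summed level of the gate's own 8 markers was lowest in library 2, at 497 CPM, with 668 CPM in library 1 and 983 to 1250 CPM in the others. The cardiomyocyte list summed to 512 CPM in library 2 against 126 to 255 CPM, and the smooth muscle list to 481 against 79.6 to 147 CPM. The neural crest mesenchyme list summed to 606 against 188 to 446 CPM, and the endocardial cushion list to 487 against 159.9 to 365 CPM. The surface ectoderm list summed to 36.0 against 11.9 to 21.9 CPM, and the macrophage list to 11.1 against 1.93 to 5.73 CPM. The erythroid list was lowest in library 2, at 64.2 against 91.4 to 210 CPM. Their part in the member levels was not tested.

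Over the 16 types in all 6 libraries, 1 of the 5 members at 10 CPM, Slc2a3, differed at least 2-fold between its highest and lowest library in most types (9 of 16). Of all genes at 10 CPM, 17.5% did so. That count was 0 when any one of libraries 2 to 6 was left out. Slc2a1 differed 2-fold in 1 type, surface ectoderm, Txnip and Slc2a8 in 3 and Arrdc4 in 4. Median folds from the lowest to the highest library were 1.34 for Slc2a1, 2.05 for Slc2a3, 1.58 for Txnip and 1.54 for Arrdc4.

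Slc2a8 (ENSMUSG00000026791; chr2:32972990-32982083, minus strand), the transporter of internal membranes, ranged from 11.02 CPM to 1.91 CPM over the types. Its highest levels were 11.02 CPM in the cardiomyocytes of neither chamber gate (libraries 9.32 to 13.3) and 10.97 CPM in anterior second heart field (8.46 to 12.3), a ratio of 1.01 (interval 0.873 to 1.16) with each higher in 3 of 6 libraries. Ventricular cells had 9.48 CPM and endocardium 5.62 CPM, a ratio of 1.69 (interval 1.46 to 1.96) in the same direction in 6 of 6 libraries. Erythroid cells were lowest at 1.91 CPM.

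Slc2a4 (ENSMUSG00000018566; chr11:69942539-69948188, minus strand) was sparse and nearly undetected in endothelium. It had 6.33 CPM in the cardiomyocytes of neither chamber gate (5.26 to 7.56), 5.37 CPM in paraxial mesoderm (3.12 to 7.34) and 5.28 CPM in anterior second heart field (3.83 to 8.89), and these overlapped. Ventricular cells had 4.46 CPM. Vascular endothelium had 1 UMI in 453 cells, or 0.0497 CPM, and endocardium 0.252 CPM. Ventricular cells were 17.7-fold above endocardium (interval 9.75 to 35.8) in 6 of 6 libraries without overlap. In macrophages no UMI was found, which allows up to 1.12 CPM.

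Slc2a10 (ENSMUSG00000027661; chr2:165503787-165519917, plus strand) and Slc2a12 (ENSMUSG00000037490; chr10:22645011-22704285, plus strand) were also low, and the types that held them differed. Slc2a10 was at 1.83 CPM in endocardial cushion mesenchyme (24 UMIs) and 1.74 CPM in endocardium (76 UMIs), which overlapped, and at 0.248 CPM in ventricular cells. Endocardium was 7.03-fold above ventricular cells (interval 4.17 to 12.5) in 6 of 6 libraries without overlap. Slc2a12 was at 6.03 CPM in surface ectoderm, with 5.98, 6.22, 5.57, 5.89, 6.12 and 6.45 CPM in libraries 1 to 6, and at 3.95 CPM in endoderm (3.64 to 4.63). The 2 ranges did not overlap, and the ratio was 1.53 (interval 1.26 to 1.85). Slc2a12 in ectoderm did not share the spread of Slc2a1 and Slc2a3, and in the high cells it was at 5.16 CPM against 6.11 CPM in the others.

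Txnip (ENSMUSG00000038393) was, among the 19 types, highest in endothelium. Vascular endothelium had 88.8 CPM (interval 84.8 to 93.1), with 78.2, 86.8, 81.2, 97.9, 82.1 and 106 CPM in libraries 1 to 6. Endothelium of neither gate had 80.5 CPM (60.1 to 111), and endocardium 72.7 CPM (66.3 to 99.8). The 3 ranges overlapped, and vascular cells were above endocardium in 5 of 6 libraries (ratio 1.22, interval 1.15 to 1.30). The endothelial gates that differed 5.07-fold in Slc2a1 thus had Txnip levels that overlapped. Macrophages had 89.1 CPM in 41 cells (interval 78.1 to 101).

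Endocardial cushion mesenchyme, which arises from endocardium, had 29.7 CPM of Txnip (19.3 to 36.0), and endocardium was 2.45-fold higher (interval 2.20 to 2.73) in 6 of 6 libraries without overlap. In heart muscle Txnip was at 38.9 CPM in ventricular cells (33.4 to 45.8), 42.9 CPM in atrial cells (35.7 to 56.04) and 54.0 CPM in the remaining cardiomyocytes (46.3 to 59.7). The order of ventricular and remaining cardiomyocytes was opposite to that of Slc2a1: the latter were 1.39-fold higher in Txnip (interval 1.31 to 1.47) in 6 of 6 libraries without overlap. Depth differed as well, with a median of 50204 UMIs in ventricular cells and 32268 in the remaining cardiomyocytes, and its part in this ratio was not tested. Epicardium had 38.0 CPM and endoderm 52.4 CPM.

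Mesoderm and crest had less. Anterior second heart field had 32.5 CPM (28.2 to 42.4), posterior second heart field 16.4 CPM (10.51 to 27.8) and neural crest mesenchyme 11.2 CPM (9.82 to 13.2). Anterior second heart field was 2.90-fold above neural crest mesenchyme (interval 2.70 to 3.11) in 6 of 6 libraries. Neurons had 10.48 CPM (5.35 to 17.4 in 4 libraries). Erythroid cells had 0.966 CPM, from 0.458 to 2.01 CPM by library, although Slc2a1 was at 54.3 CPM there. With globin UMIs out of the total it was 1.63 CPM.

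Over the 16 types with all libraries, Txnip was highest in library 4 in 10 types, and lowest in library 1 in 7 and in library 2 in 5. How many of all genes favour 1 library in as many types was not counted. Library 1 is also the one with Xist, so sex and any other property of that library cannot be told apart. Median mitochondrial percents were 2.29, 2.33, 2.23, 2.52, 2.51 and 2.41 in libraries 1 to 6. Median depths were 32587, 33898, 35634, 31610, 30533 and 33945 UMIs in the same order. The part of either in the Txnip order was not tested. In epicardium, for example, Txnip was at 29.4, 35.5, 41.2, 52.8, 41.0 and 40.4 CPM in libraries 1 to 6. Slc2a1 did not show that order there, at 146, 176, 118, 144, 116 and 124 CPM.

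Arrdc4 (ENSMUSG00000042659) had another order of types than Txnip. Neurons had 26.8 CPM (interval 22.7 to 31.5; 182 cells), from 24.7 to 29.6 CPM in the 4 libraries with 20 or more of them. Endoderm had 17.0 CPM (14.6 to 21.2), and neurons were 1.57-fold above it (interval 1.31 to 1.88) in 4 of 4 libraries. Crest glia had 6.77 CPM (4.82 to 8.14), 3.96-fold below neurons (interval of that ratio 2.96 to 5.34) without overlap. Epicardium had 14.1 CPM (13.6 to 15.97), macrophages 18.3 CPM and vascular endothelium 8.60 CPM (5.24 to 12.7). The other types with values per library, apart from these, lay from 8.49 CPM in branchiomeric muscle to 13.5 CPM in atrial cells. Erythroid cells had 0.333 CPM, so both alpha-arrestin genes were lowest there. Slc2a8, Slc2a10 and Slc2a12 were also lowest in erythroid cells, whose UMIs were 40.5% globin. The share of all genes lowest there was not counted.

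**Figure D4:**
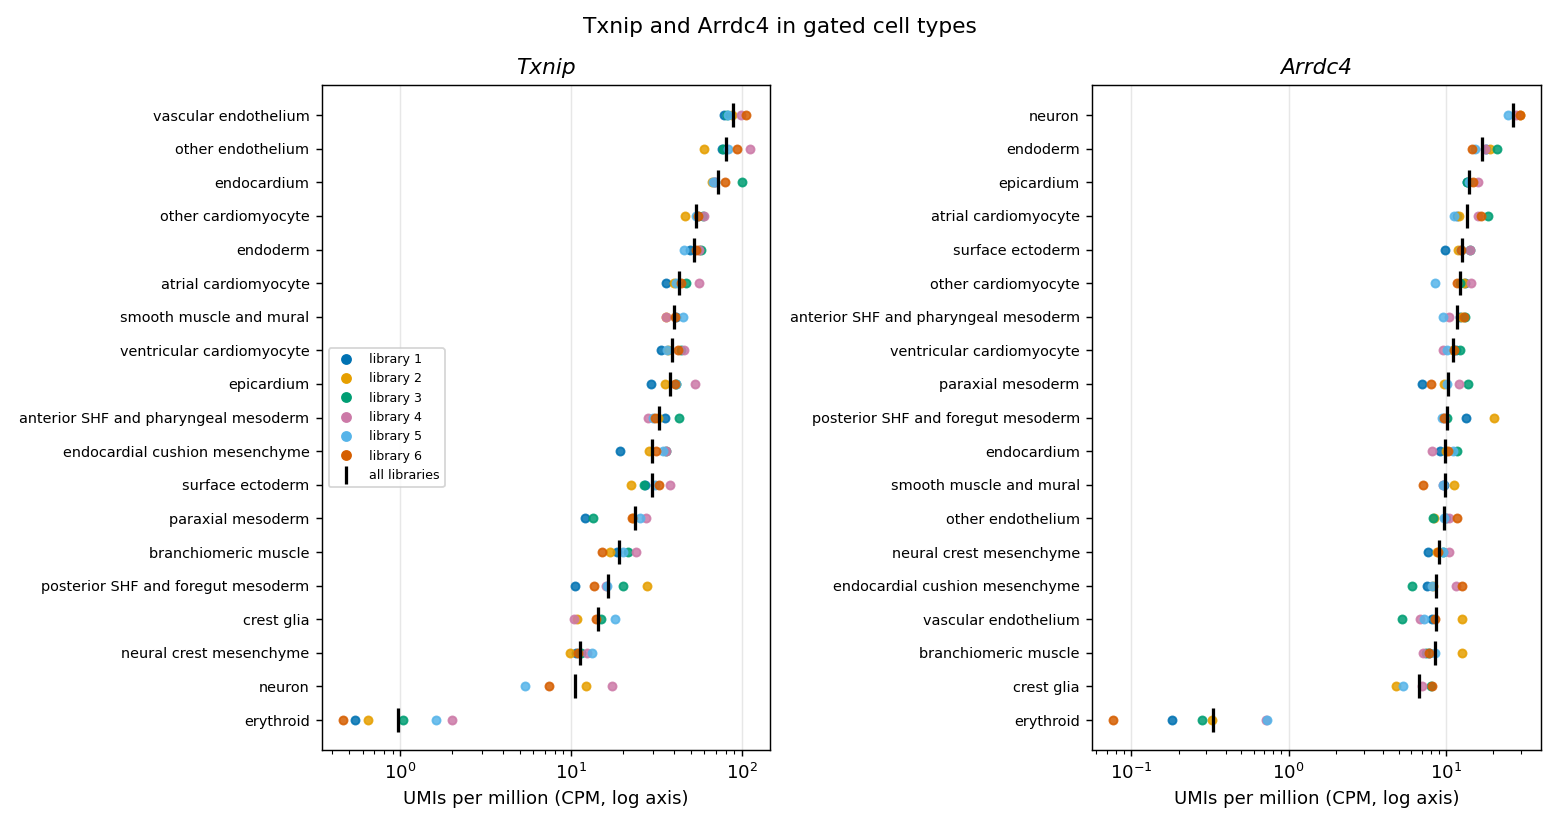
Txnip (left) and Arrdc4 (right) in 19 gated cell types, in CPM on log axes; colored points are libraries with at least 20 cells of the type and black ticks are all libraries together. The 3 endothelial gates lead for Txnip, neurons lead for Arrdc4 and are next to last for Txnip, and erythroid cells are far below the rest for both.

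As a description over 19 types, log2(CPM + 1) of Txnip and Arrdc4 had a Pearson correlation of 0.61, and of Slc2a1 and Slc2a3 0.47. The types share libraries, and erythroid cells lie far from the others for the first pair. After removing each type's mean, over 96 points of 16 types by 6 libraries, the values were 0.37 and 0.35. By the same measure over types, the genes most like Txnip were Pea15a (0.97), Mast4 (0.94) and Sgms1 (0.93). Those most like Slc2a1 were Ccng1 (0.88), Spryd7 (0.87) and Gm826 (0.86), and those most like Slc2a3 included Clic6 (0.92) and Platr22 (0.91). For Arrdc4 they were Tbca (0.96), Rraga (0.95) and Lmbrd2 (0.95), and for Slc2a8 they were 6330418K02Rik, Usp11 and Apbb1 (0.93 each). Over the 96 points within types, Slc2a1 was most like Bsg (0.60), Myl6 (0.58) and Tgfb1i1 (0.58), Slc2a3 like Krt8, Gata3 and Msx2 (0.58, 0.58 and 0.54), and Txnip like Marcks, Asah1 and Crls1 (0.62, 0.58 and 0.57). These points include surface ectoderm, where the share of the high cells ran from 0.830% to 12.9% by library. In those cells Bsg was at 1506 CPM against 460.5 CPM in the other ectoderm, and Krt8 at 2338 against 385 CPM. The parts of the high cells and of posterior second heart field in the values over the 96 points were not tested.

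Genes around the members were read from lists, which were chosen with earlier results of these data known. Of 18 genes of glucose phosphorylation, glycolysis and lactate transport, 16 reached 10 CPM, against 42.5% of all genes with a UMI. Of these 16, 14 were highest in a cardiomyocyte gate, where 12.4% of the 11558 genes at that level were highest. Hk1, the housekeeping hexokinase, was at 127 CPM in ventricular cells against a median over types of 13.4 CPM. Pfkp, a phosphofructokinase, was at 129 against a median of 5.72 CPM, and Ldha, lactate dehydrogenase, at 2821 against a median of 962 CPM. Slc16a3, which exports lactate, was at 280 against a median of 61.3 CPM. The exceptions were Pkm, at 1332 CPM in neurons and 1331 CPM in ventricular cells, and Slc16a1, a lactate carrier, at 60.8 CPM in epicardium. Slc2a1, at 598 against a median of 54.3 CPM, was thus highest in the same cells as most of these genes, and Slc2a3 was not.

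Of 8 other hexose transporters only Slc2a13, a myo-inositol carrier, reached 10 CPM, against 42.5% of all genes with a UMI. It was at 58.8 CPM in endocardial cushion mesenchyme. Slc2a5, the fructose transporter, was at most 6.04 CPM (neurons), and Slc2a2, the liver and islet transporter, at most 0.232 CPM (endoderm). Slc5a1 and Slc5a2, the sodium-coupled glucose carriers, were at most 0.106 and 3.19 CPM. Among the factors that act on Txnip and Arrdc4, Mlx and Mlxip had medians over types of 23.8 and 18.2 CPM. Mlxipl was at most 3.06 CPM, in endoderm. Txn1, the thioredoxin that Txnip binds, was at 826 CPM in epicardium against a median of 572 CPM. All 8 genes of the insulin pathway list reached 10 CPM, against 42.5% of all genes with a UMI. Of the 8, 3 were highest in neurons, against 14.5% of the 11558 genes at that level. The 1 highest in a cardiomyocyte gate was Tbc1d4, a brake on Slc2a4 transport to the surface, at 36.9 CPM in atrial cells.

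Of 12 hypoxia-responsive genes 11 reached 10 CPM, against 42.5% of all genes with a UMI, and 5 of them, Egln1, Bnip3, Pdk1, Ankrd37 and Adm, were highest in a cardiomyocyte gate, against 12.4% of all genes at that level. Cells of each type and library were ranked by the summed level of the 12 genes, cut into 3 equal sets, and the top set was compared with the bottom set. Slc2a1, which is not in the list, was higher in the top set in 16 of 16 types, and in 11 of them in each of the 6 libraries. Slc2a3 was higher in 15 of 16 types, the exception being epicardium (0.81-fold). Of 11547 genes at 10 CPM, 3.78% were higher in the top set in at least 15 types, and the median gene was higher in 10. Slc2a8 was higher in 8, Txnip in 12 and Arrdc4 in 11. The count in each library was not made over all genes. Slc2a1 is itself highest in a cardiomyocyte gate, like the 5 list genes above. The part of cardiomyocyte RNA in these sets was not tested.

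The ratio of top to bottom set had a median over types of 1.35 for Slc2a1 (1.20 to 1.94) and 1.74 for Slc2a3 (0.81 to 2.85). In ventricular cells Slc2a3 was at 38.5 CPM in the top set and 13.5 CPM in the bottom set, and Slc2a1 at 673 and 529 CPM. In vascular endothelium Slc2a1 was at 222 and 152 CPM and Slc2a3 at 12.8 and 5.85 CPM, again in 6 of 6 libraries for both. The largest ratio for Slc2a1, 1.94, was in the cardiomyocytes of neither chamber gate, at 540 and 279 CPM. Whether the sets of that gate also differ in maturity was not tested.

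Txnip was read against total UMIs and mitotic genes within types. In the set of cells with most UMIs Txnip was lower than in the set with fewest in 15 of 16 types, and in 9 of them in each library. Of 11558 genes, 7.14% were lower in at least 15 types. The median ratio was 0.62. In ventricular cells Txnip was at 29.2 CPM in the deepest set and 59.01 CPM in the shallowest. Slc2a12, far sparser, was likewise higher in the deepest set in 1 of 16 types, with a median ratio of 0.67, but was lower in every library in only 1 type. In the set highest for 12 mitotic genes Txnip was lower in 13 of 16 types, 7 of them in each library, with a median ratio of 0.76. That many types were reached by 23.9% of 11546 genes, and the median gene was higher in the top set in 7. Other members were like Txnip in this: Slc2a4, Slc2a10 and Slc2a12 were higher in the top set in 3, 2 and 4 types, against 3 for Txnip. In endoderm the levels were 42.2 and 74.01 CPM and in vascular endothelium 81.0 and 112 CPM, whereas paraxial mesoderm, cushion mesenchyme and endothelium of neither gate went the other way. Txnip was also higher in the set with the highest mitochondrial percent in 13 of 16 types, with a median ratio of 1.23. Of all genes at 10 CPM, 21.1% were higher in at least 13 types, and the median gene was higher in 10. The counts in each library were not made over all genes. The separate parts of depth, mitotic genes and mitochondrial share in the Txnip level were not tested. Arrdc4 was higher in the deepest set in 9 types and lower in 7, with a median ratio of 1.03. Slc2a1 was higher in the deepest set in 12 types, with a median ratio of 1.09, against 6 types for the median gene.

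**Figure D5:**
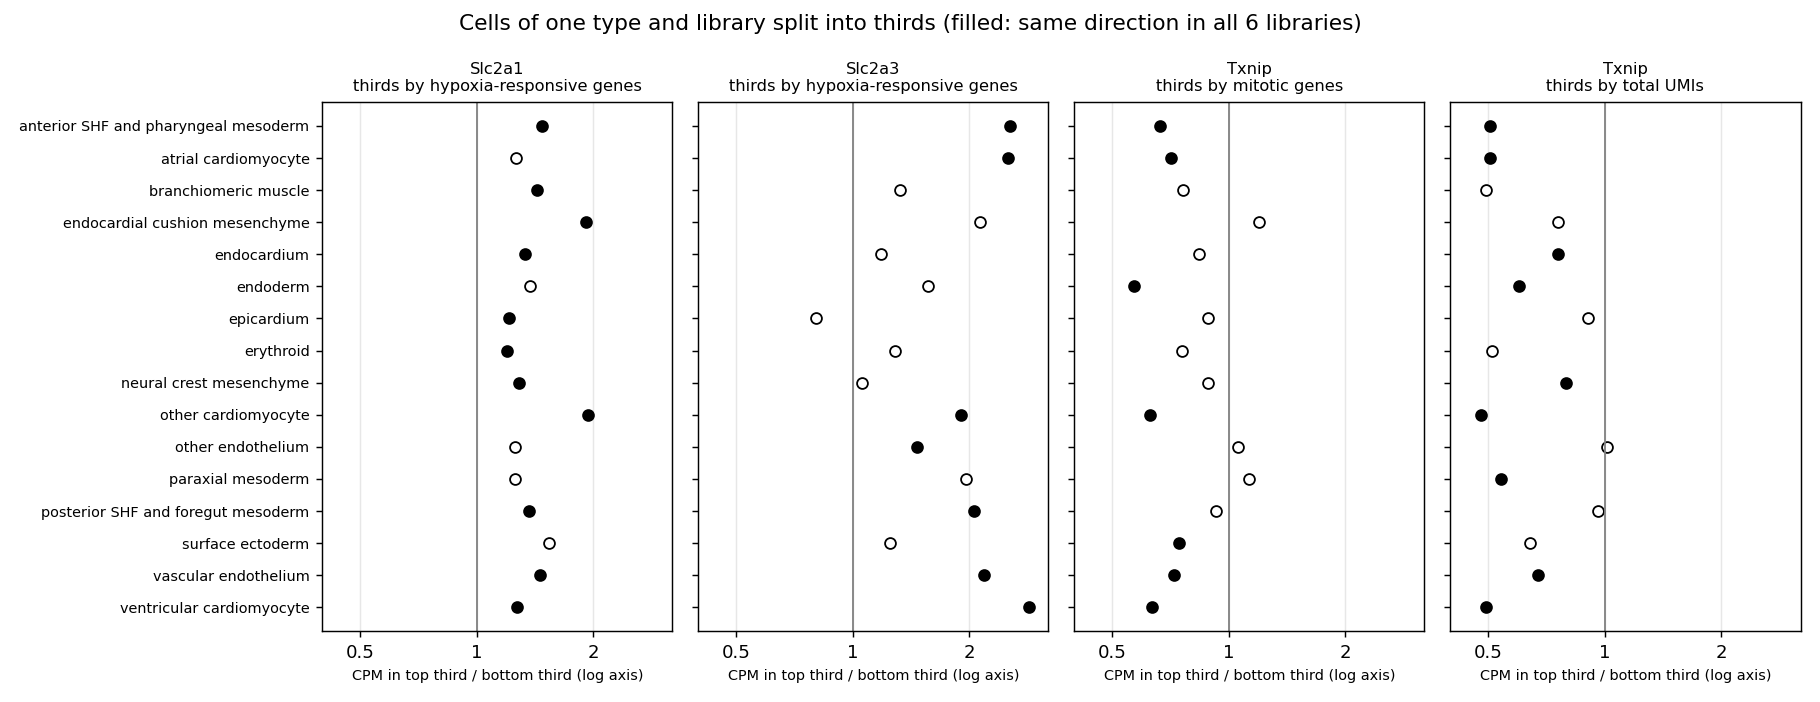
Ratio of CPM in the top against the bottom of 3 equal sets of cells, ranked within each of 16 cell types and each library, on log axes; filled points have the same direction in all 6 libraries. Slc2a1 lies to the right of 1 in 16 types and Slc2a3 in 15 when ranked by hypoxia-responsive genes, and Txnip lies to the left in 13 types when ranked by mitotic genes and in 15 when ranked by total UMIs.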

How the data were processed

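The authors deposited raw UMI counts per gene and cell, all samples in 1 matrix, with gene and barcode lists. The file headers name Cell Ranger 5.0.0. The submitters' processing notes name mm10, CASAVA 1.8 and Seurat 4. The label descriptions name a chromatin assay, while titles, library source and the 3′ v3 kit name RNA. The matrix was read here as transcript counts. The genes, the marker lists and the lists of genes around the members were chosen with earlier results of these data known.

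Counts were summed per gate and library and divided by total UMIs (Python 3.11.15, NumPy 2.4.6, SciPy 1.17.1, pandas 2.3.3, matplotlib 3.10.9). The number of markers asked of each of 18 gates (3 to 6 of 8, and 8 of 10 for erythroid cells) was set on the markers alone. Gates are ranges: of 3435 cells passing the cardiomyocyte gate 369 sat at the minimum, of 2274 endothelial 203, of 2622 surface ectoderm 1090, of 2616 anterior second heart field 1875, of 5479 neural crest mesenchyme 2332 and of 1604 smooth muscle 1318. Cells passing the cardiomyocyte gate were not counted for the anterior second heart field and smooth muscle gates, which share markers with it. Hepatocyte-like cells (6) were left out. No doublet caller was run; cells in several gates were set aside. Ratios have intervals from exact binomial (Clopper-Pearson) limits. With no map from libraries to samples, no treatment test was run. The rule for 2-fold differences between libraries and the likeness measure were tried on simulated Poisson counts. The rule on the highest type in each library and the 10 CPM rule were not.

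Named were the 8 genes, the 3 most alike of each at 10 CPM, by Pearson correlation of log2(CPM + 1) outside the gate markers, and list members that are highest or share a type with a transporter. One gene that this rule names is not reported here. List genes named for their role and the genes of the high ectoderm cells were chosen after their values were seen. Alternatives were the cell filter, gate strictness, doublets, shared barcodes, thinning to 5000 UMIs, library weights and leaving out each library.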

Additional observations from a re-analysis of the deposited data

How the results depend on the processing

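No paired analysis was possible because the barcode suffixes carry no replicate number of the labels and no treatment. The number of genes at 10 CPM was 5 under every alternative. The number whose highest type lay above the next in each library compared (4 libraries for Arrdc4) was 3, 4 with 1 more marker asked of every gate, 1 in cells thinned to 5000 UMIs and 2 to 4 when a library was left out. The number differing 2-fold between libraries in most types was 1, 0 without the 5% of cells with most UMIs, 3 after thinning and 0 to 1 when a library was left out. Thinning leaves fewer UMIs for each value; the other causes were not tested. The ratio of Slc2a8 in the remaining cardiomyocytes to anterior second heart field, 1.01, turned to 0.975 with at least 1000 genes and at most 20% mitochondrial UMIs, to 0.976 for the median of libraries, and ranged from 0.973 to 1.06 when a library was left out (0.993 without library 5 and 0.991 without library 6). The ratio of Slc2a10 in cushion mesenchyme to endocardium, 1.05, was 0.917 for the median of libraries and 0.809 to 1.36 when a library was left out, the lowest without library 2; in thinned cells it was 3.84. No alternative changed the highest type of Slc2a1, Slc2a3, Slc2a4, Slc2a12 or Txnip, nor that of Arrdc4 where enough neurons remained. The highest type of Slc2a8 changed under 8 and that of Slc2a10 under 2. Without the high cells, an alternative added after seeing the data like the one on globin, Slc2a3 in surface ectoderm was at 251 CPM and 1.99-fold above endoderm, which ends its 2-fold lead. Slc2a1 in ventricular cells ranged from 589 to 613 CPM and Txnip in vascular endothelium from 84.4 to 102 CPM. For Arrdc4 in neurons the stricter gate and leaving out some libraries gave no value, as too few neurons remained.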
